A study of Cavia porcellus with 12 samples.

Results

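The miR-181 family was described in small RNA sequenced from ventricular cardiomyocytes of guinea pigs. Its members were the table entries whose name ends in hsa-mir-181a-1, hsa-mir-181a-2, hsa-mir-181b-1, hsa-mir-181b-2, hsa-mir-181c or hsa-mir-181d, 6 human precursors in all. An entry is 1 sequence listed under 1 human precursor, so that a miRNA is spread over entries of different length or end (isomiRs). The family held 48 of the 1610 entries for DOX and DMSO at 1 h, 41 of the 1335 for DOX and DMSO at 22 h, and 63 of the 4979 in the comparison of DOX 22 h with DOX 1 h, called here the 2 DOX times. These were 65 different entries under 5 precursors, and mir-181d had 0 entries in each of the 3 tables.

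The cardiomyocytes were isolated from hearts of adult female Hartley guinea pigs and kept with 10 µM DOX, the anthracycline doxorubicin, or with its vehicle DMSO, at room temperature. The labels give 4 groups of 3 libraries, DMSO 1 h, DOX 1 h, DMSO 22 h and DOX 22 h, 12 libraries in all. Isolated cardiomyocytes do not divide in the dish, and a change from 1 h to 22 h of exposure also holds the time since isolation. The values used here are the authors' means, 1 per entry and comparison, over both groups, and columns of the authors' own comparisons of groups were not used.

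MicroRNAs are short RNAs cut from a hairpin precursor, from its 5′ arm (5p) or its 3′ arm (3p). They guide Argonaute proteins to messenger RNAs, mostly by pairing of the seed near their 5′ end, and repress them. The miR-181 family is encoded in paired clusters, each with a mir-181a and a mir-181b hairpin, and in a further cluster with mir-181c and mir-181d. It is known for setting the sensitivity of T cell receptor signalling, and in heart muscle cells mature miR-181c has been described in mitochondria, where it acts on a transcript of cytochrome c oxidase.

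The most abundant deposited 5p sequences are shown because the whole family shares their start, whereas their middle and 3′ ends tell the members apart. Capitals mark the shared stretch, which lies within the seed of the family. The start of the deposited sequences was not checked against the mature miRNAs, whose sequences were not used here, and may lie downstream of the mature 5′ end.

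mir-181a-5p: CATTCAacgctgtcggtgagt
mir-181b-5p: CATTCAttgctgtcggtgggt
mir-181c-5p, 20 bases: CATTCAacctgtcggtgagt
mir-181c-5p, 21 bases: CATTCAacctgtcggtgagtt

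Of the 42 family entries of the 5p arm, 39 start with this stretch and the other 3 start 1 base further on. Counted from 1 at the 5′ end of the deposited sequence, mir-181b-5p differs from mir-181a-5p by A7T, C8T and A19G. Removing the base at position 9 of mir-181a-5p gives the 20-base sequence of mir-181c-5p. The 3p sequences are shown because they differ between the precursors of 1 mature 5p form.

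mir-181a-1-3p: catcgaccgttgattgtacc
mir-181a-2-3p: cactgaccgttgactgtacc
mir-181b-1-3p: cactggacaatgaatgcaa
mir-181b-2-3p: cactgatcaatgaatgcaaa
mir-181c-3p: catcgaccgttgagtggacc

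The 3p sequence of mir-181a-2 differs from that of mir-181a-1 by T3C, C4T and T14C. That of mir-181c differs from mir-181a-1 by T14G and T17G, and that of mir-181b-2 from mir-181b-1 by G6A and A7T over 19 bases. The family comprised 48 different sequences, 17 of them listed under 2 precursors and 0 of them under a precursor outside the family.

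The labelled cell type was checked against miRNAs known from each cell type. All 7 cardiomyocyte markers were detected in each table, and together they made up 33.5% of the summed means at 1 h, 35.1% at 22 h and 37.1% for the 2 DOX times. The most abundant of them was mir-1-2, with 10.8%, 11.0% and 11.6%. Markers of other cells were present as well. The 2 smooth muscle markers, led by mir-143, summed to 19.4%, 20.96% and 19.8%, and the endothelial marker mir-126 stood at 4.41%, 3.83% and 3.24%. The 3 fibroblast markers summed to 0.266%, 0.201% and 0.197%, with mir-199a-1 the most abundant at 1 h. The 6 blood and immune markers summed to 0.0179%, 0.0101% and 0.0114%, with mir-142 the most abundant at 22 h, and no listed marker stood at 0. The place of the decimal mark is uncertain for 3 of their entries at 1 h, and with the place the 22 h table gives they would sum to 0.0111% there. Their part in the levels of the miR-181 family was not tested. In such bulk RNA, fewer cells of a type and less RNA per cell cannot be told apart.

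Within this small RNA the family was a minor component. The authors' means of its entries, normalized counts averaged over the libraries of a table, summed to 43714 at 1 h, 34920 at 22 h and 37999 for the 2 DOX times. This was 0.744%, 0.731% and 0.633% of the summed means of each table. The tables were normalized separately and the means carry no SD, so the levels are set side by side without a test.

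mir-181a-5p made up most of the family in every table. Its entries held 85.2% of the family's summed means at 1 h, 86.5% at 22 h and 85.7% for the 2 DOX times. mir-181b-5p followed with 7.30%, 6.66% and 7.05%, and mir-181c-5p with 3.57%, 3.71% and 3.44%. The 5p arm as a whole took 96.1%, 96.8% and 96.2%, and the order of the 5p forms was the same in the 3 tables. mir-181a-3p, at 3.67%, 2.98% and 3.41%, was close to mir-181c-5p in level. mir-181b-3p was the rarest, with 0.0982%, 0.0537% and 0.113%, and mir-181c-3p reached 0.153%, 0.136% and 0.254%. The tables list rare entries down to unlike levels, so the shares of these rare arms are not compared between them.

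**Figure D1:**
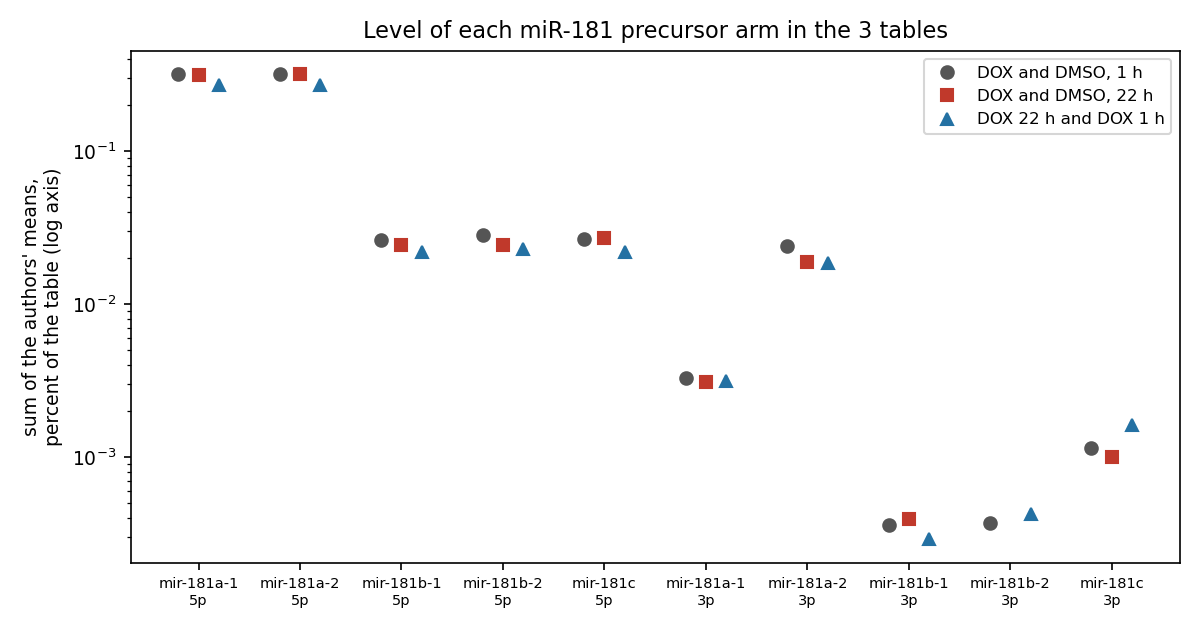
Sum of the authors' means of the entries of each precursor arm, in percent of the summed means of the table, on a log axis, with 1 point per table and no error since a mean over both groups carries no spread between libraries. Both mir-181a 5p arms stand at 0.271% to 0.318%, above all other arms of the family, and the arm of mir-181b-2-3p has no entry at 22 h.

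The paralogs could be told apart on the 3p arm. Entries of mir-181a-2-3p summed to 1411 normalized counts at 1 h, against 194 for mir-181a-1-3p, which is 7.27 times as much. The same ratio was 6.07 at 22 h and 5.86 for the 2 DOX times. On the 5p arm, where both precursors list the same sequences, mir-181a-2 over mir-181a-1 was 0.997, 1.01 and 1.00, and mir-181b-2 over mir-181b-1 was 1.06, 1.00 and 1.03. The excess of 5p over 3p therefore differed between the mir-181a paralogs by their 3p level: it was 96.2, 102 and 86.1 for mir-181a-1, but 13.2, 17.0 and 14.7 for mir-181a-2. For mir-181c it was 23.3, 27.3 and 13.5, and for mir-181b-1 72.9, 61.9 and 76.0. For mir-181b-2 it was 75.9 at 1 h and 53.4 for the 2 DOX times, with no 3p entry at 22 h. The number of 3p entries with a mean above 0 differed between the tables of 1 h, 22 h and the 2 DOX times. It was 2, 2 and 8 for mir-181c, 2, 2 and 5 for mir-181a-1, and 2, 0 and 5 for mir-181b-2. Over all entries it was 1506, 1323 and 2369. The lowest mean above 0 was 1.26, 10.0 and 0.441, so these counts are not read as a difference between times. The ratios of 5p over 3p take in every 3p entry a table lists, so they are not compared between tables. mir-181c-3p summed to 67.1, 47.6 and 96.5. Its 19-base and 20-base entries listed in every table had means of 29.3 and 37.8 at 1 h. They had 23.1 and 24.5 at 22 h, and 24.4 and 32.8 for the 2 DOX times. The ratios for single mir-181a and mir-181b precursors also rest on 5p entries whose reads cannot be assigned to 1 paralog.

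The means of both tables with DOX 22 h were found to be sums over 1 library on each side. All 1323 usable means at 22 h, and the 2369 above 0 for the 2 DOX times, equalled whole numbers of reads of 2 libraries divided by their size factors, within 6.56e-07 and 7.45e-09 of a whole number. The rows that name libraries carry replicate 1 on both sides, in 12 of 12 cases at 22 h and 29 of 29 for the 2 DOX times. One library is common to both tables: of 1052 entries with 1 solution at 22 h, the reads of the same library also solved the other table in 1052, against at most 132 for another assignment. DOX 22 h is the group that both comparisons share, and the reads were named accordingly. Solving both tables together gave exactly 1 solution for 1216 entries, 39 of them of the family, and so the reads of 3 libraries: DMSO 22 h, DOX 22 h and DOX 1 h. The 1216 entries summed to 440362 reads in DMSO 22 h, 474736 in DOX 22 h and 623625 in DOX 1 h, and the family to 12730, 12531 and 16474. To set the libraries side by side, reads of DMSO 22 h were multiplied by 1.12 and those of DOX 1 h by 0.778. With 1 library a side there is no replicate check and no p-value, a difference is one between libraries, and all intervals, at 95%, cover counting error only.

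The 21-base entries of mir-181a-5p, the most abundant of the family, had 3 solutions each and could not be resolved. They held 63.8% of the family's summed means at 22 h. For mir-181a-1 the possible reads in DMSO 22 h, DOX 22 h and DOX 1 h were 6789, 15791 and 6367, or 11906, 10037 and 13765, or 17023, 4283 and 21163. For mir-181a-2 they were 7036, 15876 and 6193, or 12153, 10122 and 13591, or 17270, 4368 and 20989. The log2 ratio of DOX 22 h over DMSO 22 h for mir-181a-1 would be 1.05, -0.42 or -2.16, so that no direction is given for this form. Its authors' mean was 12998 normalized counts at 1 h, 11045 at 22 h and 11760 for the 2 DOX times.

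Sequences listed under both mir-181a precursors, or under both mir-181b precursors, had their reads divided almost evenly. The 19-base form of mir-181a-5p had 2210 reads under mir-181a-1 and 2204 under mir-181a-2 in DMSO 22 h, 2084 and 2065 in DOX 22 h, and 2531 and 2577 in DOX 1 h. The 21-base form of mir-181b-5p had 538 under mir-181b-1 and 527 under mir-181b-2 in DMSO 22 h, 489 and 503 in DOX 22 h, and 730 and 737 in DOX 1 h. Over the family, the Clopper-Pearson interval of the share under the first precursor held 50% in 36 of 38 cases of a sequence and a library with at least 20 reads. The 2 others were the 19-base form of mir-181b-5p in DOX 22 h, with 317 and 235 reads (57.4%, interval 53.2 to 61.6), and its 17-base form in DOX 1 h, with 12 and 26 reads (31.6%, interval 17.5 to 48.7). The interval held 50% in 309 of 333 such cases over all entries, in 18 of 18 of the miR-30 family and in 8 of 9 of the miR-26 family. The 5p reads of 1 paralog are thus uncertain, and the 5p values of a mature form below are sums over both, whereas single entries and counts of entries are by precursor.

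**Figure D2:**
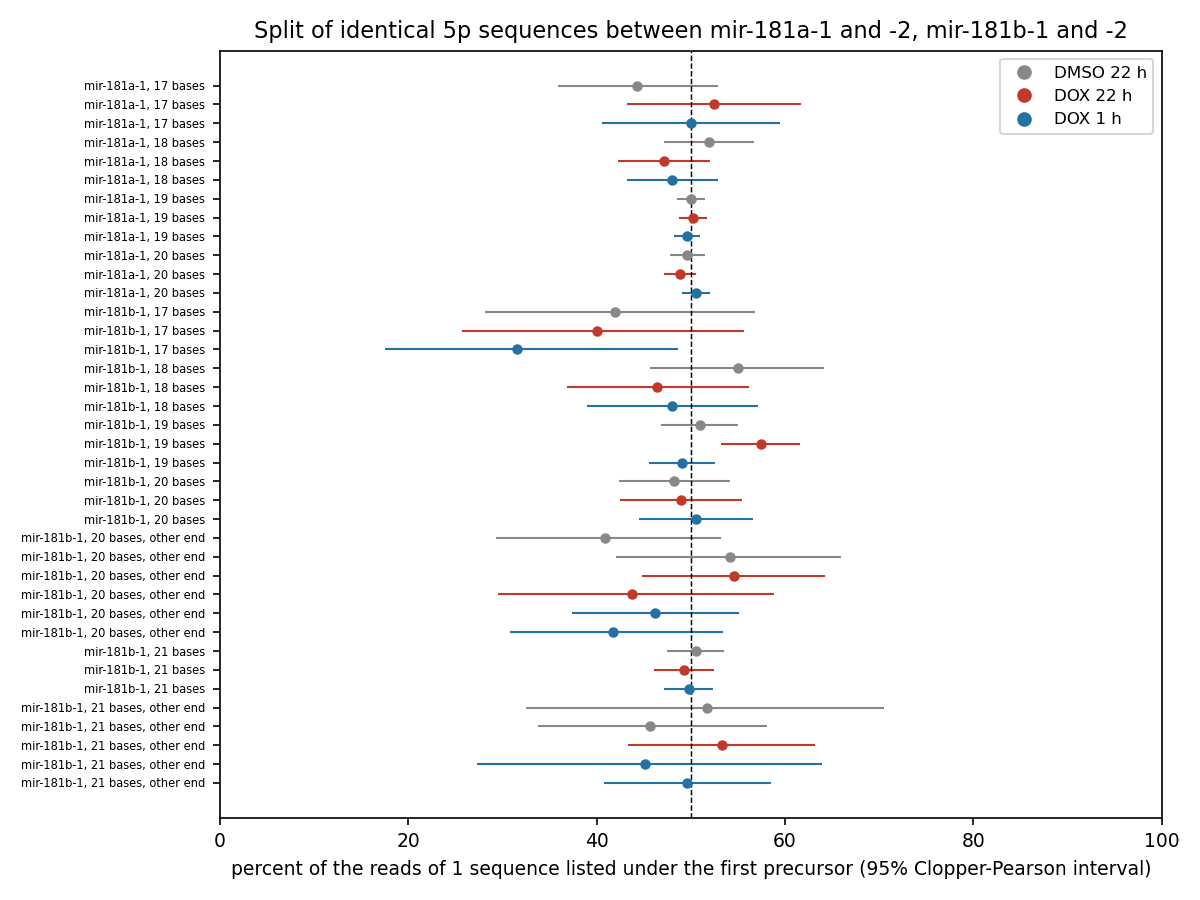
Share of the reads of each identical 5p sequence that is listed under mir-181a-1 (of mir-181a-1 and mir-181a-2) or mir-181b-1 (of mir-181b-1 and mir-181b-2), in percent, with 95% Clopper-Pearson intervals and 1 point per sequence and library. The points lie around the dashed line at 50%, and 36 of 38 intervals include it.

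DOX and DMSO at 22 h were compared to see what the family looked like after long exposure. Over the 39 family entries with recovered reads, which leave out the 21-base mir-181a-5p, the summed normalized reads of DOX 22 h over DMSO 22 h gave a log2 ratio of -0.19 (interval -0.23 to -0.16). It was -0.13 with equal totals of reads, and it would be 0.57, -0.34 or -1.32 with the 21-base entries at the first, the second or the last of their solutions. The 4 mir-181c-5p entries had 1446 reads in DMSO 22 h, 1124 in DOX 22 h and 1494 in DOX 1 h, or 1626, 1124 and 1162 once scaled to DOX 22 h. On this scale the DMSO 22 h library was high and both DOX libraries were close to each other, with a log2 ratio of DOX 22 h over DMSO 22 h of -0.53 (interval -0.65 to -0.42). Of the 19 markers of cell types, 11 had every 22 h entry recovered, and of these mir-208b alone, a cardiomyocyte marker, had an interval without 0, with 7309, 5919 and 8531 reads and a log2 ratio at 22 h of -0.47 (interval -0.52 to -0.42). The smooth muscle markers were recovered in part: mir-143 had -0.70 over entries that hold 0.725% of its mean, and mir-145 had 0.33 over 30.1%. Among cardiomyocyte markers recovered in part, mir-1-1 had 0.20 (interval 0.10 to 0.31) over 0.303%. mir-133a-1 had -0.10 (interval -0.17 to -0.02) over 1.87%, and mir-133a-2 had -0.10 (interval -0.18 to -0.02) over 1.89%. The intervals of mir-1-2, mir-499a and the endothelial mir-126, also recovered in part, included 0.

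mir-181b-5p had 2385, 2250 and 3113 reads in DMSO 22 h, DOX 22 h and DOX 1 h, and its log2 ratio at 22 h was -0.25 (interval -0.34 to -0.17). The forms of mir-181a-5p from 17 to 20 bases had 7804, 8040 and 10238 reads, with a log2 ratio at 22 h of -0.13 (interval -0.17 to -0.08), or -0.07 with equal totals. The 2 paralogs of mir-181a stood on opposite sides of 0 on the 3p arm. mir-181a-1-3p had 116 reads in DMSO 22 h, 182 in DOX 22 h and 150 in DOX 1 h, a log2 ratio at 22 h of 0.48 (interval 0.14 to 0.83). mir-181a-2-3p had 910, 872 and 1391 reads, a log2 ratio of -0.23 (interval -0.37 to -0.10). The 2 intervals do not overlap within this pair of libraries. mir-181b-1-3p, with 22 reads in DMSO 22 h and 15 in DOX 22 h, had a log2 ratio of -0.70 (interval -1.77 to 0.29), and mir-181c-3p, with 47 and 48 reads, had -0.14 (interval -0.75 to 0.47). Both intervals include 0, so that no difference was detectable at this depth.

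Entries that differed at least 2-fold, a log2 ratio of at least 1 in size with 0.5 added to each normalized read count and at least 10 reads, were counted against all entries. Over all 1216 entries, 10.9% passed at 22 h, 6.09% higher in DOX 22 h and 4.85% lower, around a median log2 ratio of 0.00. In the family 3 of 39 passed, 0 higher and 3 lower, around a median of -0.26, and the range was -1.64 to 0.93. The 22 h table lists no mean under 10.0, so rarer entries are not part of these counts.

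The 3 entries were an 18-base mir-181c-5p and 2 forms of mir-181b-1-5p. The 18-base mir-181c-5p had 87 reads in DMSO 22 h (Poisson interval 69.7 to 107), 31 in DOX 22 h (21.1 to 44.0) and 36 in DOX 1 h (25.2 to 49.8). DMSO 22 h was high and both DOX libraries were low, and the log2 ratio at 22 h was -1.64 (interval -2.30 to -1.05). A 20-base mir-181b-1-5p with the change G20T had 39, 21 and 33 reads in the same order, with a log2 ratio of -1.04 (interval -1.90 to -0.26). A 21-base mir-181b-1-5p with G20A and T21A had 15, 7 and 14 reads, with a log2 ratio of -1.21 and an interval, -2.80 to 0.11, that includes 0. The same 2 sequences under mir-181b-2 had log2 ratios of -0.45 and -0.93 and did not pass. With each sequence summed over its precursors, chosen after seeing the data, 2 of 26 family sequences passed, as did 11.2% of all 1030 sequences. The form with G20T, at 72 and 48 reads in DMSO 22 h and DOX 22 h, had a log2 ratio of -0.75 (interval -1.31 to -0.21) and did not pass, whereas that with G20A and T21A, at 29 and 15 reads, had -1.09 (interval -2.13 to -0.17). With equal totals of reads, 2 of the family's entries passed in place of 3, and 11.9% of all entries. With 5 added to each normalized read count in place of 0.5, 7.57% of all entries passed, and of the family the 18-base mir-181c-5p, at -1.51, while the 2 forms of mir-181b-1-5p were at -0.90 and -0.85.

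**Figure D3:**
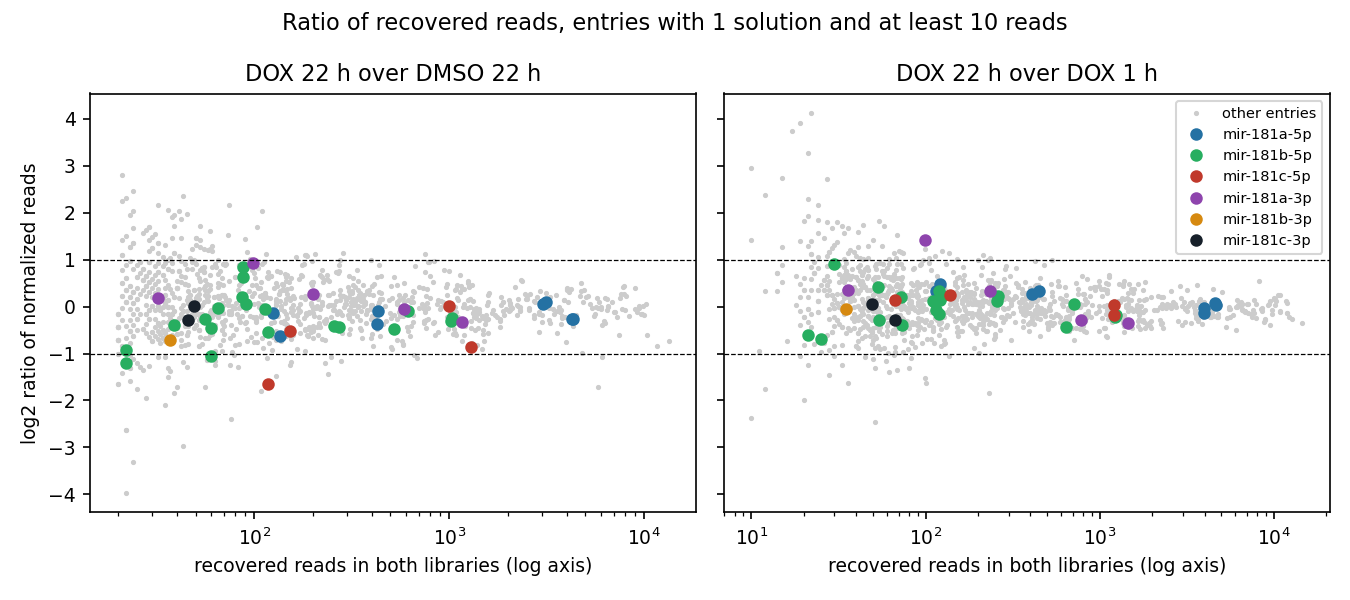
Log2 ratio of normalized reads, DOX 22 h over DMSO 22 h (left) and DOX 22 h over DOX 1 h (right), against the recovered reads in both libraries on a log axis, 1 point per entry with at least 10 reads. Coloured points are the 39 family entries by mature form, grey points the other entries and dashed lines a 2-fold difference, which 3 family entries pass at 22 h and 1 passes for the 2 DOX times.

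DOX 22 h and DOX 1 h were compared to follow the family over the time of exposure, with no DMSO library of 1 h to set beside it. The family's recovered entries, again without the 21-base mir-181a-5p, gave a log2 ratio of -0.03 (interval -0.07 to 0.00). After centring on the median of all entries, 0.05, it was -0.079 (interval -0.11 to -0.045), so that whether the interval includes 0 depends on the scaling. With the 21-base entries it would be 0.97 at the first of their solutions, -0.06 at the second and -1.11 at the last, so no direction is given for the whole family. Of the 1215 entries with recovered reads, at least 10 of them, 7.65% passed 2-fold, 5.76% higher and 1.89% lower in DOX 22 h. Each of these entries needed a mean in the 22 h table, which holds DOX 22 h and lists none under 10.0. DOX 1 h had no such floor, so entries low in DOX 22 h can be missing. The shares higher and lower are therefore not set against each other. In the family 1 of 39 passed, and it was higher in DOX 22 h, around a family median of 0.07 and a range of -0.69 to 1.41.

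This entry was the 19-base form of mir-181a-1-3p. It had 31 reads in DMSO 22 h (Poisson interval 21.1 to 44.0), 67 in DOX 22 h (51.9 to 85.1) and 32 in DOX 1 h (21.9 to 45.2). Once scaled to DOX 22 h these were 34.9, 67 and 24.9 reads, so that DOX 22 h was the highest. Its log2 ratio was 1.41 over DOX 1 h (interval 0.80 to 2.08) and 0.93 over DMSO 22 h (interval 0.31 to 1.61). The 20-base form of the same arm had 85, 115 and 118 reads, and its log2 ratios of 0.32 and 0.27 had intervals that include 0. Over these 2 recovered entries, of 5 listed for the 2 DOX times, mir-181a-1-3p had a log2 ratio of 0.64 over DOX 1 h (interval 0.32 to 0.96). mir-181a-2-3p, with all 3 entries recovered, had -0.31 (interval -0.43 to -0.19). The recovered forms of the 5p arm lay closer to 0. mir-181a-5p from 17 to 20 bases had 0.01 (interval -0.03 to 0.06), or -0.033 after centring (interval -0.075 to 0.0097). Its 21-base form is not part of this value, and under mir-181a-1 would be at 1.67, -0.09 or -1.94. mir-181b-5p had -0.11 (interval -0.18 to -0.027) and mir-181c-5p -0.05 (interval -0.16 to 0.06). Equal totals of reads move these log2 ratios up by 0.031, so whether the mir-181b-5p interval includes 0 depends on the scaling. Of the 11 markers with every 22 h entry recovered, the interval over DOX 1 h lay above 0 for mir-208a (0.27), mir-142 (0.50) and mir-144 (1.80, with 20 and 7 reads), and below 0 for mir-208b (-0.16) and mir-150 (-1.12, with 13 and 37 reads). Of the markers recovered in part, it lay above 0 for mir-499a (0.47), mir-1-1 (0.20), mir-1-2 (0.19), mir-143 (0.14) and mir-126 (0.07). It lay below 0 for mir-145 (-0.19) and included 0 for mir-133a-1 and mir-133a-2. Both comparisons use the same DOX 22 h library, so a value particular to it enters each of them.

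At 1 h the table pools its libraries in a way that gave no reads, and since the authors' own comparisons were not used, only their means over DOX and DMSO together are given. The 21-base mir-181a-5p led with 12998 normalized counts under mir-181a-1 and 12945 under mir-181a-2, followed by the 19-base form with 2862 and 2848. The 21-base mir-181b-5p stood at 744 and 751, and the 20-base mir-181c-5p at 786. The difference between DOX and DMSO at 1 h was not analysed here.

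The 5p forms had different lengths in the tables. Lengths and positions are those of the deposited sequences, so they may not be those of the mature RNAs. No sequence listed under a human precursor in any table was longer than 21 bases, and family entries ranged from 15 to 21 bases. The 21-base form made up 69.7%, 73.7% and 72.1% of mir-181a-5p at 1 h, at 22 h and for the 2 DOX times. It made up 52.8%, 49.1% and 51.2% of mir-181b-5p, but 40.9%, 38.6% and 45.6% of mir-181c-5p, whose 20-base form took 50.3%, 50.8% and 45.6%. The 19-base form outweighed the 20-base form for mir-181a-5p (15.3% and 12.8% at 1 h) and mir-181b-5p (24.7% and 15.8%), but was rare for mir-181c-5p (4.85%). The shortest entries of mir-181a-5p had 15 bases, under mir-181a-2, with a mean of 3.28 for the 2 DOX times, and 16 bases, under mir-181a-1, with 16.8 at 1 h and 6.93 for the 2 DOX times. On the 3p arm the 20-base form led for mir-181a-3p, with 63.4%, 65.8% and 63.5%.

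**Figure D4:**
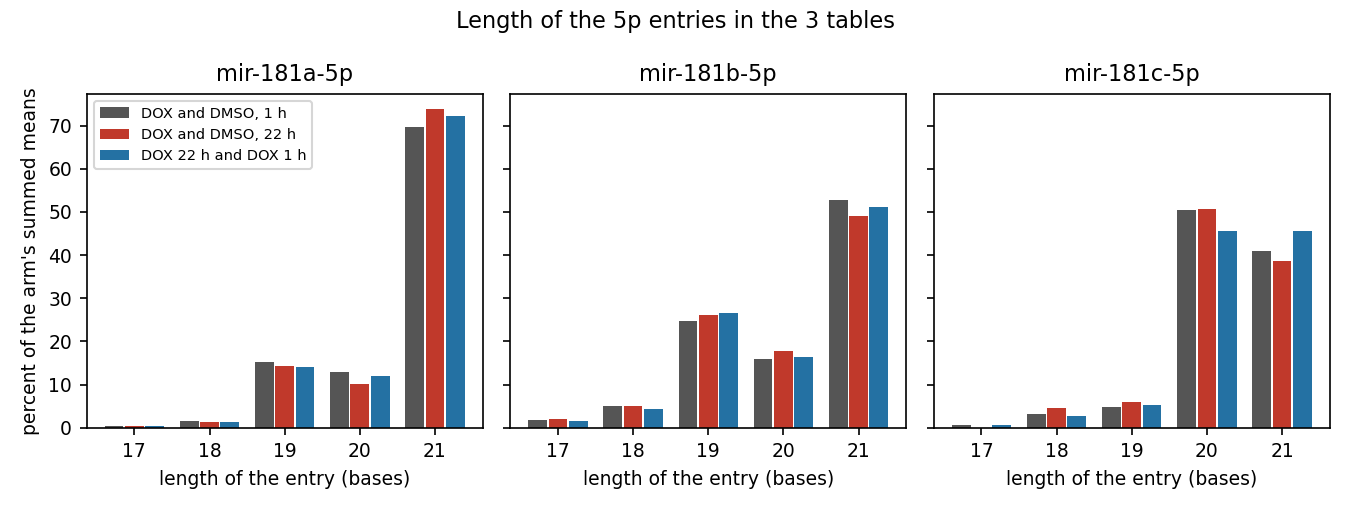
Share of the summed authors' means of mir-181a-5p, mir-181b-5p and mir-181c-5p by length of the entry, in percent, with 1 bar per table. The 21-base form is the highest bar of mir-181a-5p (69.7% to 73.7%) and mir-181b-5p, while mir-181c-5p is divided between 20 and 21 bases.

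In the libraries, the balance of neighbouring lengths varied. For mir-181c-5p the 20-base form had 802 reads in DMSO 22 h, 494 in DOX 22 h and 718 in DOX 1 h, and the 21-base form, 1 T longer, 472, 532 and 668. The longer form was thus 37.0% of both in DMSO 22 h (Clopper-Pearson interval 34.4 to 39.8), 51.9% in DOX 22 h (48.7 to 54.9) and 48.2% in DOX 1 h (45.5 to 50.9). The DMSO 22 h library stood below both DOX libraries, whose intervals overlap. After scaling, the 21-base form was at 531, 532 and 520 reads and the 20-base form at 902, 494 and 558, so that the balance followed the shorter form. The log2 ratio at 22 h was 0.00 (interval -0.18 to 0.19) for 21 bases, -0.87 (interval -1.03 to -0.70) for 20 bases and -0.51 (interval -0.997 to -0.034) for 19 bases. Equal totals of reads move these ratios up by 0.061, so whether the 19-base interval includes 0 depends on the scaling.

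**Figure D5:**
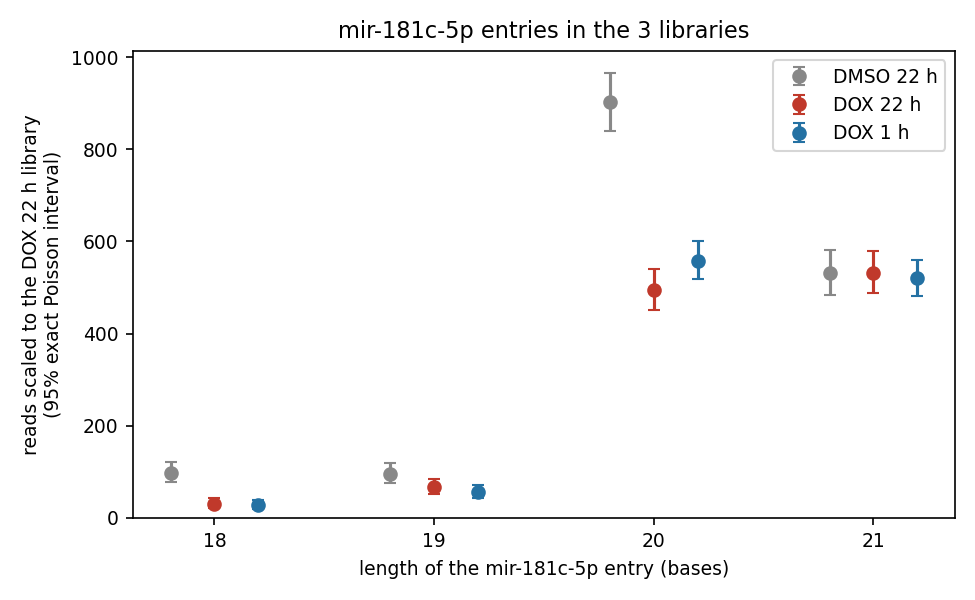
Recovered reads of the 4 mir-181c-5p entries, scaled to the DOX 22 h library, by length in bases, with 95% exact Poisson intervals and 1 point per library. The 21-base entry lies between 520 and 532 in the 3 libraries, while the 18-base and 20-base entries are highest in DMSO 22 h.

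mir-181a-5p also had its lowest share of the longer of 2 forms, 20 and 19 bases, in DMSO 22 h. The 20-base form had 2811 reads in DMSO 22 h, 3353 in DOX 22 h and 4579 in DOX 1 h, and the 19-base form 4414, 4149 and 5108. The longer form was 38.9% of both in DMSO 22 h (interval 37.8 to 40.0), 44.7% in DOX 22 h (43.6 to 45.8) and 47.3% in DOX 1 h (46.3 to 48.3), and the 3 intervals do not overlap. For mir-181b-5p the 21-base form was 78.7%, 80.5% and 84.2% of the 21-base and 20-base sequences without a base difference, and only DOX 1 h stood apart from DMSO 22 h beyond counting error. The other pairs of lengths differed in their order. The 20-base form of mir-181b-5p was 32.8% of the 20-base and 19-base sequences without a base difference in DMSO 22 h (interval 29.7 to 36.1), 30.4% in DOX 22 h (27.2 to 33.7) and 25.6% in DOX 1 h (23.0 to 28.3), highest in DMSO 22 h. The same share for mir-181c-5p was 90.4%, 88.1% and 90.9%, with overlapping intervals. On the 3p arm, the 20-base form of mir-181a-1-3p was 73.3% of both lengths in DMSO 22 h (interval 64.3 to 81.1), 63.2% in DOX 22 h (55.7 to 70.2) and 78.7% in DOX 1 h (71.2 to 84.9), and the intervals of the 2 DOX libraries do not overlap. That of mir-181a-2-3p was 68.9%, 64.3% and 65.3%, with overlapping intervals. That of mir-181c-3p was 48.9%, 54.2% and 60.3%, lowest in DMSO 22 h as for mir-181a-5p but with overlapping intervals.

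Weighted by reads, the mean length of mir-181c-5p was 20.15 bases in DMSO 22 h, 20.36 in DOX 22 h and 20.35 in DOX 1 h, a rise of 0.211 from DMSO 22 h to DOX 22 h. Over 177 precursor arms with at least 100 recovered reads in each library the median of this difference was -0.00257 bases, with quartiles of -0.0605 and 0.0489, and 8 arms, mir-181c-5p included, rose by at least as much. Some of these arms lack their most abundant lengths, which had several solutions, as the mir-181a 5p arms do. Over the 138 arms with every 22 h entry recovered, chosen after seeing the data, the median was -0.0120 bases, with quartiles of -0.0649 and 0.0457, and 5 arms, mir-181c-5p included, rose by at least as much. No test of these differences was possible with 1 library a side.

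Sequences with a base difference from the most abundant form of their arm were found almost only for mir-181b among the 5p arms. Of the mir-181b-5p entries with a mean above 0, 9 of 20 had one at 1 h, 9 of 19 at 22 h and 9 of 22 for the 2 DOX times, together 12.0%, 12.5% and 13.3% of its summed means. mir-181a-5p had 0 of 11, 0 of 10 and 0 of 12 such entries, and mir-181c-5p 0 of 5, 0 of 4 and 1 of 6. A further mir-181b-1-5p entry at 1 h, without a usable mean, also had one, which makes 10 of 21 listed. The differing ends are shown with their changed bases in capitals, since all of them lie within the last bases of the sequence.

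mir-181b-5p, 19 bases: cattcattgctgtcggtgA
mir-181b-5p, 20 bases, A end: cattcattgctgtcggtggA
mir-181b-5p, 20 bases, T end: cattcattgctgtcggtggT
mir-181b-5p, 21 bases, A end: cattcattgctgtcggtgggA
mir-181b-5p, 21 bases, AA end: cattcattgctgtcggtggAA

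Relative to the most abundant form they carry G19A, G20A, G20T, T21A, and G20A with T21A. The first has at position 19 the base of mir-181a-5p, with the bases of mir-181b-5p before it, and at 22 h and for the 2 DOX times it is listed under mir-181b-2 only, with 31, 34 and 38 reads in DMSO 22 h, DOX 22 h and DOX 1 h. Entries with a base difference took 11.4% of the mir-181b-5p reads in DMSO 22 h (interval 10.2 to 12.8), 13.8% in DOX 22 h (12.4 to 15.3) and 13.1% in DOX 1 h (12.0 to 14.4), with overlapping intervals. The 21-base A end took 6.17% of the 21-base reads ending in A or T after the same 20 bases in DMSO 22 h (interval 4.84 to 7.73), 9.57% in DOX 22 h (7.90 to 11.5) and 8.20% in DOX 1 h (6.90 to 9.65). Its share in DMSO 22 h lay below that in DOX 22 h, whereas the interval of DOX 1 h overlaps both. Summed over precursors, the log2 ratios of the differing ends at 22 h had both signs. They were 0.41 (interval -0.03 to 0.87) for the 21-base A end and 0.43 (interval -0.0094 to 0.89) for the 20-base A end. The 19-base end had -0.04 (interval -0.78 to 0.71), the T end -0.75 and the AA end -1.09.

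The rest of the family was rare. In the table of the 2 DOX times, 22 family entries had no mean at 22 h, 1 of them at a mean of 0 and the highest at 12.8, and 5 of them were also listed at 1 h. Among them were the 5 entries of mir-181b-2-3p, 17 to 21 bases long, of which the 20-base form had 8.76 normalized counts and the 19-base form 4.72. At 1 h these 2 stood at 11.3 and 10.4. mir-181b-1-3p had a single entry of 19 bases, at 21.2, 18.7 and 17.3 normalized counts in the 3 tables. mir-181c-3p was led by its 20-base form, with 37.8, 24.5 and 32.8, and 4 of its 8 entries with a mean above 0 for the 2 DOX times, 9 listed in all, had a base difference and held 26.2% of the arm.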

How the data were processed

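The authors sequenced small RNA, aligned the reads to human sequences (hg19 in the submitters' notes) in the BaseSpace application Small RNA 1.0, and tested groups with DESeq2. The values used are the deposited signal: reads divided by size factors, averaged over the libraries of a comparison. The other columns of the authors' deposited tables hold group values, log2 fold changes, standard errors, p-values and adjusted p-values, and were not used. The 1 h and 22 h tables had lost their decimal mark. Its place was taken from the same entry in the table of the 2 DOX times, for 1506 of 1610 and 1323 of 1335 entries. The 22 h table gave the same place at 1 h for 1285 of 1292 entries and for 41 of 41 of the family. The other 7 held 0.0142% of the 1 h summed means, and the family's share was 0.744% with either place. The places at 22 h came from the table of the 2 DOX times as well, so their match is not an independent check. Placing the mark in this way bounds a 1 h mean near its partner. Means were solved for whole reads with size factors as ratios of whole numbers up to 2000, and this was tested on simulated data. Starts over 15 bases apart were taken as different arms. Members and lists were chosen with earlier results of these data known. The entries named are each precursor and arm's most abundant, longest and shortest entries, those past 2-fold with at least 10 reads, and sequences under several precursors. Alternatives were other scalings, added reads of 5, minima of 50 reads or none, 1.5-fold, sequences summed over precursors, and unweighted lengths. Python 3.11.15, numpy 2.4.6, scipy 1.17.1 and matplotlib 3.10.9 were used.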

Additional observations from a re-analysis of the deposited data

How the results depend on the processing

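No paired analysis was possible because no column of the tables is named for a library, although the labels share replicate numbers. Leaving out a replicate was not possible for the same reason. With each sequence counted once, the family's share was 0.510% at 1 h, 0.499% at 22 h and 0.435% for the 2 DOX times, since most of its reads lie under 2 precursors. Reads of such a sequence were divided between its precursors, so this setting leaves part of them out and is not a correction. The family's log2 ratio of DOX 22 h over DMSO 22 h was -0.13 with equal totals of reads. With the 21-base mir-181a-5p entries at their solutions, an alternative chosen after seeing the data, it was 0.57, -0.34 or -1.32, and that of DOX 22 h over DOX 1 h was 0.97 or -1.11 at the first and the last of them. The latter was -0.079 after centring, and its interval then excluded 0. For mir-181a-5p from 17 to 20 bases, without its 21-base form, equal totals gave -0.07 at 22 h, in place of -0.13. Centring gave -0.033 for the 2 DOX times, in place of 0.01. With at least 50 reads, 5.99% of all entries passed 2-fold at 22 h and 3.74% for the 2 DOX times. At 1.5-fold, 30.3% and 20.99% passed, with 10 and 4 family entries. With 5 reads added, chosen for this count after seeing the data, 1 family entry and 7.57% of all entries passed 2-fold at 22 h, and 1 family entry and 4.44% of all entries for the 2 DOX times. The unweighted median length of 5p entries was 20 bases at 1 h, 20 at 22 h and 19.5 for the 2 DOX times, and that of 3p entries was 19 in each table. Over arms with every 22 h entry recovered, chosen after seeing the data, 5 of 138 rose in mean length by at least as much as mir-181c-5p, in place of 8 of 177. The other alternatives for these results, 36 in all, stayed within the counting interval or within 1.5 times the count. Depth limits entries under 100 reads, and the most abundant entries have more than 1 solution.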
